A study of Caenorhabditis elegans with 9 samples.

Results

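The C-type lectin genes of *C. elegans* carry the name clec followed by a number. They were taken as the protein-coding genes whose RefSeq symbol has this form in assembly WBcel235, without regard to any measured value. The rule found 239 genes of the 19959 protein-coding genes in the table, or 1.20%, and every one of the 239 has an entry. Another 25 genes with a clec symbol are annotated as pseudogenes, and none of them has an entry. Worms of the wild-type strain N2 were cultured at 20°C and sequenced as whole bodies. The labels list 9 libraries in 3 groups of 3, which are control, young stage ADF and middle stage ADF, where ADF is alternative day fasting for 7 days. Values of 1 library are described, young stage ADF replicate 1, made from adult hermaphrodites of wild-type genotype. Its worms were moved between plates with and without *E. coli* OP50 on alternate days, after washing in M9 buffer. Since the remaining 8 libraries were not analysed here, no replicate error can be given and no group was compared with another.

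C-type lectins are proteins with a C-type lectin-like domain, a fold that in vertebrates binds sugars with the help of calcium, as in the mannose receptor and the selectins. The family is far larger in *C. elegans*, where many members carry a signal for secretion and few have been studied one by one. Several are made in the intestine, the organ that meets bacteria in the food, and their RNA rises or falls with the bacterium the worm feeds on. They are therefore often counted with the lysozymes, saposin-like proteins and antimicrobial peptides as candidate effectors of innate defence.

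Levels are given as FPKM, the sequenced fragments of a gene relative to its transcript length and to the depth of the library. The total of this library was 18205113 fragments. Levels of different genes can thus be compared per length. The whole fragments behind each FPKM were recovered from the values, and 95% Clopper-Pearson intervals on them cover counting error only. The 239 genes together held 76046 fragments. A value of 0 needs care, because 8 of 78 ribosomal protein genes, which every cell uses, are also listed at 0, although the median of these genes was 2407 FPKM. A member at 0 is therefore described only as listed at 0. In whole worms, fewer cells of a type and less RNA per cell cannot be told apart. The labelled whole body was checked against tissue markers. All 5 intestine markers, from 5.97 FPKM for *elt-2* to 241 FPKM for *act-5*, and all 3 yolk genes, at 913 to 1363 FPKM, were present. All 3 oocyte markers were also present, at 256 to 568 FPKM. Germline markers had 57.9 to 220 FPKM, body wall muscle markers 8.54 and 46.4 FPKM and hypodermis markers 6.05 to 691 FPKM. Sperm markers were low, with *spe-11* listed at 0 and *msp-3* and *msp-142* at 5.29 and 5.58 FPKM. Pharynx markers were also low, with *myo-2* at 1.95 FPKM and *ceh-22* at 0.232 FPKM. So were coelomocyte markers, with *lgc-26* at 1.248 FPKM and *unc-122* at 0.575 FPKM. Among the markers of embryos or larvae, *lin-28* had 89.9 FPKM, *pes-10* 3.96 FPKM, *hlh-1* 2.21 FPKM and *end-1* 0.733 FPKM, and the share of embryos in this RNA was not tested.

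Most C-type lectin genes were low or listed at 0, and a few were among the abundant RNAs of the worm. Of the 239 members, 73 had at least 1 FPKM, or 30.5%, against 56.9% of all protein-coding genes. At least 10 FPKM was reached by 27 members, or 11.3%, against 33.8% of all protein-coding genes. The median member had 0.247 FPKM, whereas the median protein-coding gene had 1.93 FPKM. On the log2(FPKM + 1) scale these medians were 0.32 and 1.55. In all, 66 members, or 27.6%, were listed at 0, against 16.6% of protein-coding genes. A further 100 members lay above 0 and under 1 FPKM. Among members of at least 1 FPKM the median was 5.46 FPKM, against 16.9 FPKM for protein-coding genes above the same threshold. These shares describe 1 library and were not tested.

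**Figure D1:**
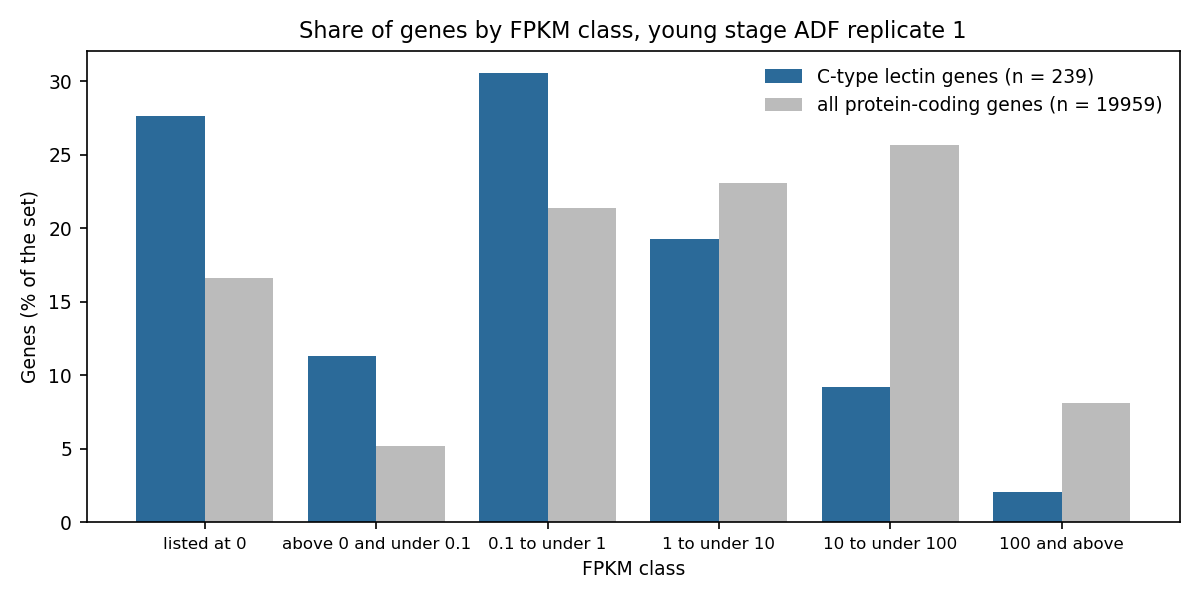
Share of genes (y axis, % of the set) in 6 FPKM classes (x axis) for the 239 C-type lectin genes and for all 19959 protein-coding genes of young stage ADF replicate 1. The C-type lectin bars are higher in the 3 classes under 1 FPKM and lower in the 3 classes from 1 FPKM upward.

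The family as a whole held 0.469% of the summed FPKM of the library, and this amount came from few genes. *clec-87* alone held 42.7% of the summed FPKM of the family, the 3 highest members held 67.2% and the 10 highest held 86.4%. The 166 members under 1 FPKM held 0.765% together. By recovered fragments, which are not scaled by length, the 10 highest members held 84.2%, and all 10 genes were shared with the ranking by FPKM. This agreement depends on the recovered length of *clec-1*. With its annotated length *clec-1* would have 996 fragments, fewer than *clec-41* with 1144.

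**Figure D2:**
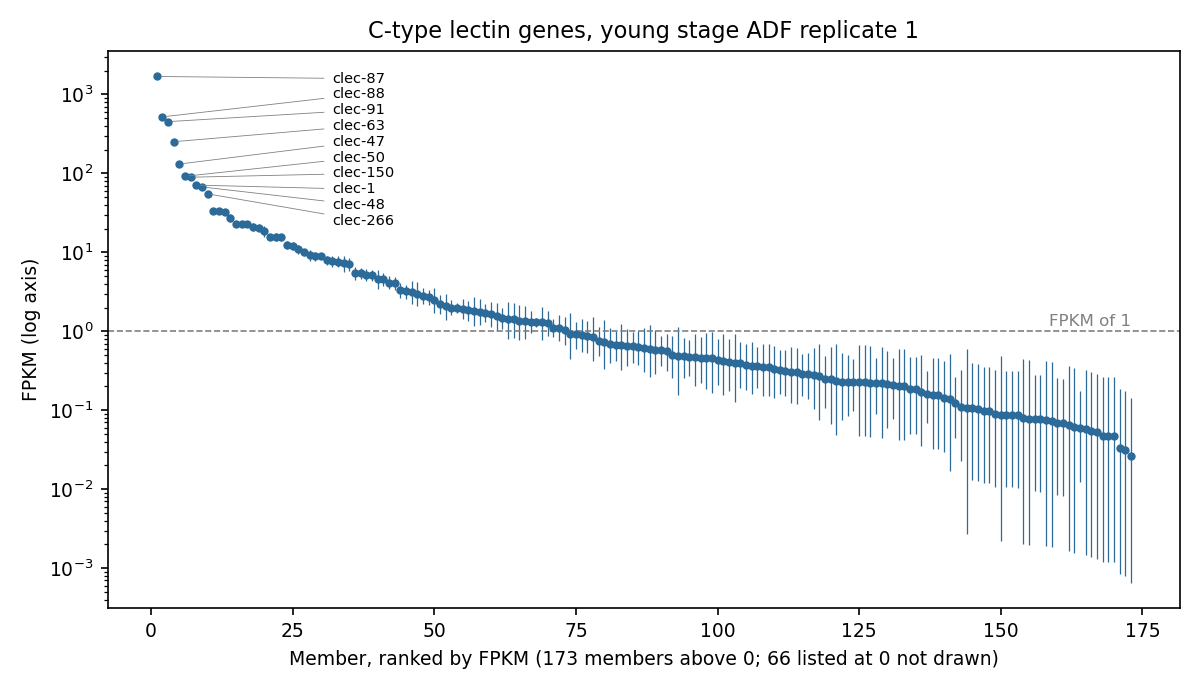
FPKM on a log axis (y) of the C-type lectin genes above 0 by rank (x) in young stage ADF replicate 1. Points are genes, bars are 95% Clopper-Pearson counting intervals, and the dashed line marks 1 FPKM. Levels run from 1687 FPKM for *clec-87* to 0.026 FPKM for *clec-9*, and the bars widen toward the low end.

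The highest member was *clec-87*, with 1687 FPKM (95% interval 1668 to 1706) on 28991 fragments. This level was 3.25 times that of the next member and lay above the yolk genes *vit-2*, *vit-5* and *vit-6*, whose proteins are the main yolk proteins, at 1228, 913 and 1363 FPKM. *clec-87* lies on the minus strand of chromosome I, from 10184462 to 10185520, and its 3 exons encode 233 residues. Its exons share 138 bases with those of *iars-2* on the opposite strand, a gene that had 0.185 FPKM.

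*clec-88*, the next in order, had 520 FPKM (95% interval 510 to 529) on 11463 fragments. On the plus strand of chromosome II, it runs from 6365722 to 6367002 and encodes 243 residues in 2 exons. It shares 7 exon bases with *ctsa-4.1* on the same strand, which had 8.05 FPKM. *clec-91* followed with 452 FPKM (95% interval 441 to 463) on 7009 fragments. It lies on the minus strand of chromosome I, from 9126140 to 9127101, in 3 exons that encode 225 residues. Each of these 3 genes stood outside any cluster of C-type lectin genes.

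*clec-63* had 252 FPKM (95% interval 245 to 258) on 6185 fragments. On the plus strand of chromosome II, it runs from 12895638 to 12897446 and encodes 411 residues in 4 exons. It was the only one of the 10 highest members that lay in a cluster. *clec-47* had 131 FPKM (95% interval 124 to 139) on 1274 fragments. It is a short gene on the plus strand of chromosome V, from 15175759 to 15176324, with 2 exons for 160 residues. It encodes the shortest protein of the 10 highest members, and *clec-63* encodes the longest.

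*clec-50* on chromosome V had 91.9 FPKM (95% interval 87.7 to 96.3), and *clec-150* on chromosome III had 89.4 FPKM (95% interval 85.4 to 93.5). Their intervals overlapped, so the order of these genes is not settled by the count. *clec-1* had 71.04 FPKM (95% interval 67.04 to 75.2) and *clec-48* had 67.3 FPKM (95% interval 63.6 to 71.1), again with overlapping intervals, both on chromosome V. *clec-266* on chromosome X had 55.0 FPKM (95% interval 53.1 to 57.0) on 2997 fragments. Its exons share 371 bases with *kqt-1* on the opposite strand, a potassium channel gene with 2.83 FPKM. From *clec-266* to the next member, *clec-190* at 33.7 FPKM (95% interval 30.7 to 36.9), the intervals did not overlap.

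Below these genes the levels fell in small steps. Among the 73 members of at least 1 FPKM there are 72 pairs of neighbours in the order of levels, and in 9 of them the intervals did not overlap. All of these 9 lay between *clec-87* and *clec-190*, except the pair of *clec-65* and *clec-56*. For 63 members the intervals lay wholly above 1 FPKM. The interval included 1 FPKM for 26 members, of which 10 were at or above the threshold and 16 below it. Just above it were *clec-72*, with 1.11 FPKM, and *clec-184*, with 1.03 FPKM. Just below it were *clec-172*, with 0.931 FPKM on 10 fragments, and *clec-82*, with 0.914 FPKM on 27 fragments. The intervals of these 4 genes all included 1 FPKM, so their side of it was not settled at this depth. No member of at least 1 FPKM rested on fewer than 15 fragments. By contrast, 43 of the members above 0 rested on 1 to 3 fragments, and 17 of these on 1 fragment.

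A list of 27 members was then read gene by gene, among them the members that have been tied to defence against bacteria. Of the 27 genes, 18 reached 1 FPKM and 1 was listed at 0. Over all protein-coding genes, 56.9% reached 1 FPKM and 16.6% were listed at 0. The median of the list was 4.59 FPKM. The list also holds 6 of the 10 highest members and was drawn up with earlier results of these data known. Nothing about the family is therefore read from its counts or its median.

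*clec-60* and *clec-52* are induced in the intestine by *Staphylococcus aureus*. *clec-52* had 10.9 FPKM (95% interval 9.47 to 12.5) on 204 fragments, whereas *clec-60* had 0.634 FPKM (95% interval 0.369 to 1.01) on 17 fragments. In this library, from worms fed OP50 between fasts, *clec-52* was thus far above *clec-60*, with intervals that did not overlap. *clec-85*, a target of the p38 kinase PMK-1, was listed at 0. Its exons share 397 bases with Y54G2A.40 on the same strand, which was also listed at 0, and the part of this overlap in the zeros was not tested. *clec-70* had 3.31 FPKM (95% interval 2.66 to 4.06), and its neighbour *clec-71* had 0.562 FPKM (95% interval 0.315 to 0.928).

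*clec-39* and *clec-49* contribute to resistance against *Serratia marcescens*. On 232 fragments, *clec-49* had 12.1 FPKM (95% interval 10.6 to 13.7), while *clec-39* had 0.0889 FPKM (95% interval 0.0108 to 0.321) on 2 fragments. This pair with a shared role was thus unequal in level, with intervals that lay apart. *clec-4*, *clec-41* and *clec-42* have been studied in the response to *Bacillus thuringiensis*. *clec-41* had 23.1 FPKM (95% interval 21.8 to 24.5) on 1144 fragments, *clec-4* had 4.05 FPKM (95% interval 3.31 to 4.90) and *clec-42* had 0.220 FPKM (95% interval 0.0884 to 0.453) on 7 fragments. None of these 3 intervals overlapped another.

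*clec-38*, which acts in axon outgrowth through the receptor UNC-40, had 0.0330 FPKM on 1 fragment. A level this low says little about a gene that may act in few cells of the whole worm. The neuronal marker *rgef-1* itself had 1.29 FPKM, while *unc-119* had 22.3 FPKM and *snb-1* 339 FPKM. The other members of the list have no role that is stated here. *clec-65* had 15.5 FPKM, *clec-223* 8.86 FPKM, *clec-67* 5.46 FPKM, *clec-66* 5.17 FPKM, *clec-86* 4.59 FPKM, *clec-7* 2.82 FPKM and *clec-78* 1.30 FPKM. *clec-17* with 0.496 FPKM and *clec-2* with 0.0873 FPKM were under 1 FPKM. *clec-78* shows how length enters the unit. Its 1.30 FPKM rested on 257 fragments because it encodes 3514 residues, the longest protein of the family, while *clec-86*, with 166 residues, reached 4.59 FPKM on 50 fragments.

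Many C-type lectin genes lie side by side. With a distance of at most 20 kb between neighbours and at least 3 members, 106 of the 239 genes formed 20 clusters, and 10 of these had at least 5 members. Of the 106 clustered members 25 had at least 1 FPKM, or 23.6%, and of the 133 others 48 did, or 36.1%. Over all protein-coding genes this share was 56.9%. The medians were 0.212 FPKM inside clusters and 0.313 FPKM outside. Of the 27 members of at least 10 FPKM, 6 lay in a cluster. In 9 of the 20 clusters no member reached 1 FPKM, among them 2 of the 10 clusters of at least 5 members. Of all 239 members 69.5% were under 1 FPKM, against 43.1% of all protein-coding genes. Clusters of few members can thus easily lack a member of at least 1 FPKM, and this count is not read as a trait of clusters. The differences between clustered and other members were not tested.

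**Figure D3:**
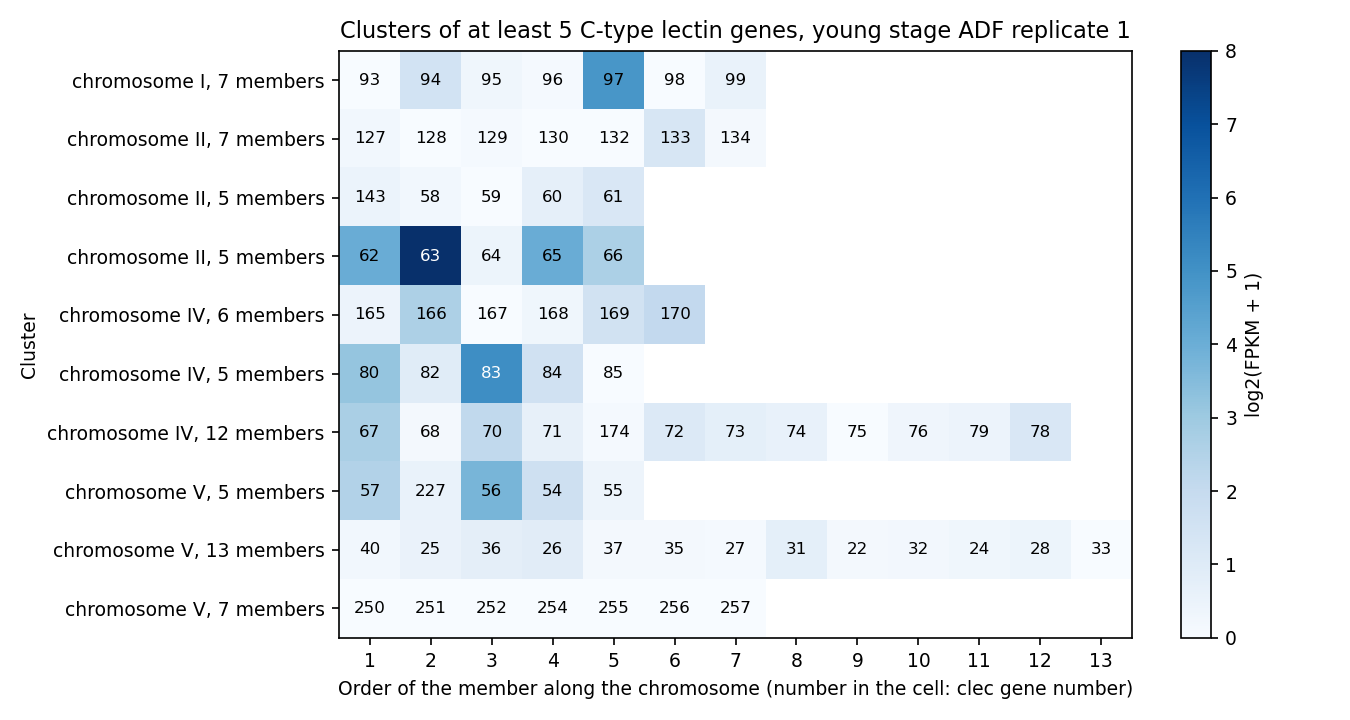
The 10 clusters of at least 5 C-type lectin genes (rows) with their members in order along the chromosome (columns), in young stage ADF replicate 1. Numbers in the cells are clec gene numbers and the shade is log2(FPKM + 1), from 0 to 8, with no spread because there is 1 library. *clec-63* is the darkest cell and lies beside *clec-64*, while all 7 members of the lowest row are at 0.

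The cluster with the highest level was that of *clec-62* to *clec-66* on chromosome II, from 12893062 to 12906644. It spans 13.6 kb with no other protein-coding gene between its 5 members. In chromosomal order the levels were 15.7 FPKM for *clec-62*, 252 FPKM for *clec-63*, 0.354 FPKM for *clec-64*, 15.5 FPKM for *clec-65* and 5.17 FPKM for *clec-66*. *clec-63* and *clec-64* lie on the same strand, 795 bases apart, and their levels differed 712-fold, with 6185 fragments against 8. The interval of *clec-64* ran from 0.153 to 0.697 FPKM, far below that of *clec-63*. *clec-63* held 87.3% of the summed FPKM of this cluster. How fragments shared by similar members were assigned was not tested.

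The same unevenness was seen in other clusters. On chromosome IV, from 2823746 to 2855456, *clec-83* had 33.2 FPKM on 558 fragments. Its neighbours *clec-82*, 654 bases away, and *clec-84* had 0.914 and 1.99 FPKM, and *clec-80* at the start of the cluster had 7.93 FPKM. *clec-83* lies on the minus strand and these neighbours on the plus strand, and its exons share 62 bases with Y54G2A.7, a gene at 9.28 FPKM on the strand opposite to *clec-83*. *clec-82* shares 116 exon bases with Y54G2A.7 on the same strand. On chromosome V, from 14469191 to 14482317, *clec-56* had 12.3 FPKM on 290 fragments. *clec-227*, which ends 24 bases before it on the same strand, had 0.463 FPKM on 10 fragments, a 26.6-fold difference.

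On chromosome I, from 11142110 to 11158833, *clec-97* had 27.2 FPKM on 328 fragments and held 91.3% of the summed FPKM of a cluster of 7. *clec-98*, which shares 118 exon bases with it on the opposite strand, was listed at 0, and so was *clec-93*. Without knowing whether counting used the strand, the fragments of *clec-97* and *clec-98* cannot be told apart with certainty. Over all clusters there were 86 pairs of adjacent members, of which 29 had more than 3 fragments on each. In these 29 pairs the median ratio of the higher to the lower level was 3.29. The ratio exceeded 10 in 7 of them, and the intervals were apart in 16. Pairs with fewer fragments on a side were left out. Members that are not adjacent were not compared, so these values do not show a trait of clusters.

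The other clusters held no member of at least 10 FPKM. The largest had 13 members on chromosome V, from 16839121 to 16869840, with no other protein-coding gene among them. Its levels ran from 0 for *clec-33* to 0.862 FPKM for *clec-26*, with a median of 0.185 FPKM, and none reached 1 FPKM. A cluster of 12 members on chromosome IV, from 3922165 to 4014235, ranged from 0 for *clec-75* to 5.46 FPKM for *clec-67*. In it, 4 members reached 1 FPKM, and the interval of *clec-67* lay above that of its neighbour *clec-68*, at 0.111 FPKM on 3 fragments. In the cluster of *clec-250* to *clec-257* on chromosome V, from 18738955 to 18774024, all 7 members were listed at 0. The clusters led by *clec-133*, *clec-61* and *clec-166* had highest levels of 1.43, 1.28 and 5.12 FPKM. The interval of *clec-166* lay apart from that of its neighbour *clec-165*, at 0.374 FPKM on 10 fragments, a 13.7-fold difference. For *clec-165* the annotated length gives 7.28 fragments, so its interval is less certain.

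The members were spread unequally over the chromosomes. Chromosome V held 85 of them, chromosome IV 53, chromosome II 48, chromosome I 36, chromosome III 14 and chromosome X 3. The share of members with at least 1 FPKM was 19.4% on chromosome I, 23.5% on V, 28.6% on III, 37.5% on II and 39.6% on IV. All 3 members on X passed. The same share over all protein-coding genes was 66.2% on chromosome I, 42.2% on V, 70.2% on III, 56.3% on II, 57.5% on IV and 61.0% on X. Thus on each chromosome except X the share was lower among C-type lectin genes than among all genes. Chromosome I, with the lowest share, still held 55.1% of the summed FPKM of the family, through *clec-87* and *clec-91*.

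The proteins encoded by the 239 members ranged from 114 to 3514 residues, with a median of 317, close to the median of 329 for all protein-coding genes. The median was 321 residues for the members of at least 1 FPKM and 314.5 for those under 1 FPKM. Over the 239 members the rank correlation of protein length with FPKM was 0.08, which is given as a description only, since FPKM is itself divided by length. The share reaching 1 FPKM was 44.1% among the 34 members under 200 residues and 20.5% among the 73 members of 200 to 299 residues. In the classes of 300 to 399, 400 to 499 and at least 500 residues it was 31.7%, 35.6% and 29.2%. Over all protein-coding genes of any length 56.9% reached 1 FPKM. Their shares by length class were not determined, so these differences are not read as a trait of the family. The class of 200 to 299 residues holds the highest member, *clec-87*, and also 33 of the 66 members listed at 0.

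Exons of 40 members overlap those of another annotated gene, in 29 cases on the opposite strand. Such overlaps were found for 16 of the 73 members of at least 1 FPKM, or 21.9%, and for 24 of the 166 under 1 FPKM, or 14.5%. The latter include 6 of the 66 members listed at 0. The share over all protein-coding genes was not determined, and a tie between overlap and level was not tested. The FPKM of these genes depends on how shared fragments were counted, which was not tested. Of the 10 highest members 4 overlap another gene, and the overlapping genes had 0.185 to 8.05 FPKM. The overlapping gene had the higher level for several members, of which some are given here. *clec-264*, with 1.56 FPKM, shares 26 exon bases with *fkb-6* at 256 FPKM. *clec-147*, with 7.74 FPKM, shares 37 exon bases with C04H5.1 at 38.9 FPKM. *clec-86*, with 4.59 FPKM, shares 63 exon bases with *alh-10* at 7.80 FPKM. *clec-82*, with 0.914 FPKM, shares 116 exon bases with Y54G2A.7 at 9.28 FPKM. *clec-141*, with 0.218 FPKM, shares 64 exon bases with *mog-5* at 43.4 FPKM.

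Other genes of defence were read from lists for comparison with the family. Of all protein-coding genes, 56.9% reached 1 FPKM. All 9 lysozyme genes of the lys family were found, and 8 of them reached 1 FPKM, with a median of 108 FPKM. They ranged from 0.159 FPKM for *lys-10*, on 2 fragments, to 267 FPKM for *lys-4*, with *lys-1* at 265 FPKM (95% interval 258 to 272) within the interval of *lys-4*, from 259 to 276. The saposin-like proteins, which act on membranes, had a median of 118 FPKM over 5 genes, all above 1 FPKM, and *spp-5* was highest with 820 FPKM. Of the 4 invertebrate lysozymes, *ilys-5* had 370 FPKM while *ilys-1* had 0.255 FPKM. Antimicrobial peptide genes had a median of 33.3 FPKM over 7 genes, 6 of them at or above 1 FPKM and *abf-3* listed at 0. Genes named for infection response had a median of 4.35 FPKM over 9 genes, from 0.189 FPKM for *irg-2* to 27.5 FPKM for *dod-24*. The lists are short and were chosen by hand, whereas the C-type lectin set is the whole family, so the medians stand side by side without a test.

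**Figure D4:**
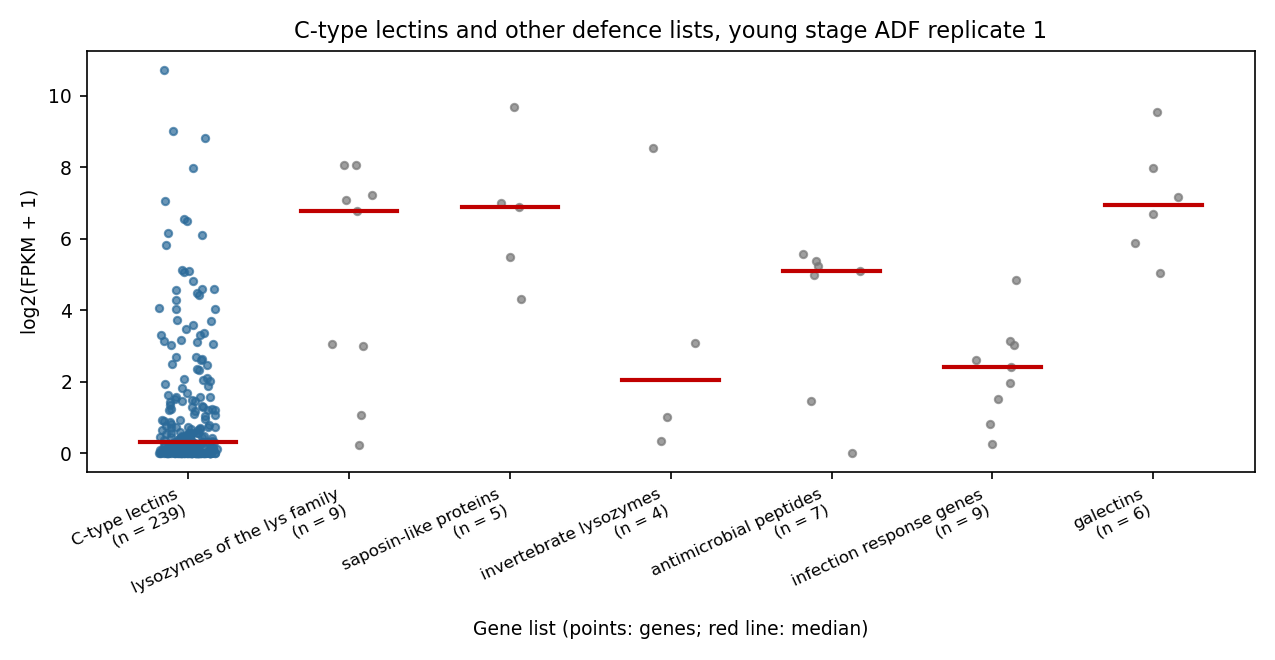
log2(FPKM + 1) (y axis) of the 239 C-type lectin genes and of 6 lists of other defence or sugar-binding genes (x axis) in young stage ADF replicate 1. Points are genes and red lines are medians, which lie at 0.32 for the C-type lectins. The highest C-type lectin, *clec-87*, lies above every gene of the other lists.

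Genes that act upstream of such effectors were present. In the p38 pathway, a kinase cascade of intestinal defence, *tir-1* had 8.44 FPKM, *nsy-1* 9.81 FPKM, *sek-1* 21.1 FPKM, the transcription factor gene *atf-7* 102 FPKM and the phosphatase gene *vhp-1* 23.1 FPKM. *pmk-1*, the gene of the p38 kinase itself, was listed at 0. As with the ribosomal protein genes and *clec-85*, nothing is read from this 0. The values of the other pathway members came from 710 fragments upward. Among 10 regulator genes all reached 1 FPKM, as did 56.9% of all protein-coding genes. The median of these regulator genes was 10.3 FPKM. They included the GATA factor genes *elt-2* and *elt-7*, which act in the intestine, with 5.97 and 9.01 FPKM, the FOXO factor gene *daf-16* with 33.0 FPKM and the TFEB homologue gene *hlh-30* with 14.5 FPKM. *bar-1* and *egl-5*, which are needed for the induction of *clec-60* by *Staphylococcus aureus*, were the lowest of them, with 1.91 and 1.99 FPKM.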

How the data were processed

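RNA of whole worms was sequenced, and the FPKM values of 1 of 9 listed libraries, young stage ADF replicate 1, were analysed. Group and replicate were taken from the labels. The FPKM values were deposited by the authors, whose methods name alignment to WBcel235 with HISAT2 and calculation with Ballgown, whereas the submitters' processing notes name Bowtie 0.12.2 and StringTie. The annotation version is not given in the sources used here. The methods name a stranded KAPA kit and the labels a TruSeq kit, so strand use in counting is not settled. Without other libraries no test between groups was made.

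The table has 45519 entries whose FPKM sum to 843149. The 24 entries that name no gene, with 0.103% of the sum, were left out. Of 45495 gene numbers, 44752 matched the RefSeq gene table of WBcel235 and 743 did not. The 239 members all matched Ensembl release 115 by name, 226 of them with identical coordinates, and exons, strand and protein length come from there.

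FPKM is fragments divided by length and library total. The total was found from piRNA entries of 21 bases and refined on 2623 genes, and for each gene the whole length from 20 to 60000 bases closest to the annotated exon length that gave whole fragments was kept. Of 6513 protein-coding genes with fewer than 40 fragments, 77.0% came within 0.02 of a whole number with the annotated length, against 3.92% with shuffled lengths. A whole fragment number was assigned to all 173 members above 0, with the annotated length for 127. For 29 of them several lengths close to the annotation would do. For *clec-9*, *clec-12*, *clec-38*, *clec-67*, *clec-84*, *clec-157*, *clec-165*, *clec-260* and *clec-264* no length close to the annotation fitted, and a more distant one was kept. Their fragments and intervals are less certain. *clec-84* was assigned 191 fragments, whereas its annotated length gives 30.3. In 1000 simulated entries, 98.8% of fragment numbers were right. Most of their lengths equalled the annotated length, which the procedure prefers, so those entries were right by design. The rest were drawn within 10% of the annotated length, a range that held for 160 of the 173 members. The 98.8% is therefore no independent check of the recovery. The simulation does not cover the other members. Intervals are exact Clopper-Pearson intervals at 95%. Detection was set at an FPKM of at least 1, and the log2 scale uses a pseudocount of 1. A limit of 3 fragments for a count of 0 would hold for the upper side alone, unlike the intervals above. It was not applied to entries at 0.

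The 239 members follow from their symbol alone. The lists, and the rules for which members are named, were chosen with earlier results of these data known. Named are the 10 highest members, a list of 27 members, the 2 members on each side of 1 FPKM and the highest member of each cluster of at least 5. *clec-250* stands for a cluster in which all members are tied at 0. The neighbours, overlap partners, list genes and other members that were named in addition were chosen after their values were seen. Protein and promoter sequences were not used here, so descriptions by sequence motif and by identity between members were not made. Scripts ran in Python 3.11.15 with pandas 2.3.3, scipy 1.17.1 and numpy 2.4.6, and plots were drawn with matplotlib 3.10.9.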

Additional observations from a re-analysis of the deposited data

How the results depend on the processing

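No paired analysis was possible because values of a single library were used, and leaving out a replicate was not possible for the same reason. The number of detected C-type lectin genes was 73 with a threshold of 1 FPKM, 146 with one of 0.1 FPKM and 173 when any value above 0 passed, as follows from the lower thresholds. Requiring more than 3 fragments as well left it at 73, which was fixed beforehand because no such member rested on fewer than 15 fragments. A threshold of 1 TPM gave 77. The median was 0.247 FPKM over all members, 0.615 FPKM over members above 0 and 5.46 FPKM over members of at least 1 FPKM. The median log2 level was 0.32 with a pseudocount of 1, -1.53 with 0.1 and -1.96 with 0.01, where the median over all protein-coding genes was 1.55, 1.02 and 0.96. The 10 highest members held 86.4% of the summed FPKM and 84.2% of the fragments. The number of clusters was 20 within 20 kb, 19 within 10 kb and 24 within 50 kb. With the annotated length, the fragments of 36 of 40 named members above 0 stayed within their counting interval, and those of *clec-87*, *clec-63*, *clec-1* and *clec-67* did not, with 29482, 5942, 996 and 204 fragments in place of 28991, 6185, 1182 and 160. The alternatives that need protein or promoter sequence were not run. Depth limits the 43 members with 1 to 3 fragments, whose order is not settled.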

Other observations

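Galectins are a separate family of sugar-binding proteins with another fold, and 6 of their genes were read in young stage ADF replicate 1. These 6 genes were all above 0, as were 83.4% of all protein-coding genes. The 6 galectin genes had a median of 123 FPKM and ranged from 31.9 FPKM for *lec-2* to 739 FPKM for *lec-6* (95% interval 722 to 756). *lec-1* had 249 FPKM, *lec-10* 143 FPKM, *lec-9* 102 FPKM and *lec-8* 57.7 FPKM. The interval of *lec-1*, from 242 to 255, overlapped that of *clec-63*, from 245 to 258, while *clec-88* and *clec-91* lay between *lec-1* and *lec-6*.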
